A study of Homo sapiens with 8 samples.

Results

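Open chromatin at the loci of MEIS1 and PBX3 was described from ATAC-seq peak lists of 697 and KOPN-8, 2 human B cell precursor acute lymphoblastic leukaemia lines. ATAC-seq uses the Tn5 transposase to cut and tag accessible DNA, and a peak is a stretch with more cuts than its surroundings. The loci were taken as fixed windows in hg19, chromosome 2 from 66.55 to 66.90 Mb for MEIS1 and chromosome 9 from 128.45 to 128.78 Mb for PBX3, and every peak that overlapped a window was counted. Over 8 libraries the windows held 150 peaks. Merged wherever they shared at least 1 bp, these made 39 regions, 29 at MEIS1 and 10 at PBX3, of 133028 regions in all. Each line gave 2 libraries of cells with an empty guide RNA vector, called controls here, and 2 libraries of 1 clone edited at SETD2. The clone is BM_B in 697 and BA in KOPN-8, and the labels describe both as heterozygous knockouts. SETD2 encodes a methyltransferase for lysine 36 of histone H3 (H3K36). Each clone group comes from a single clone, so the edit and other properties of that clone cannot be told apart. Duplicates are labelled as biological, with no word on whether they came from separate cultures, so p-values measure the spread between these libraries, which may be partly technical. A line is 1 cell line, so a test between lines compares these libraries and not types of leukaemia.

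MEIS1 and PBX3 encode homeodomain proteins of the TALE class, which bind DNA together with HOX proteins and with each other. MEIS1 is active in haematopoietic stem and progenitor cells and is switched off as B cells mature, and both genes belong to the programme that fusions of KMT2A keep active in acute leukaemia. As background, KOPN-8 carries a fusion of KMT2A with MLLT1. Expression was not measured in these files.

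The reference sequence just upstream of both genes is shown to place the genes the windows are named for. Each run is the 250 bases before the gene's start in the RefSeq promoter table, in GRCh38 on the plus strand, at chr2:66434875-66435124 for MEIS1 and chr9:125747933-125748182 for PBX3, and capitals mark the dinucleotide CG.
MEIS1: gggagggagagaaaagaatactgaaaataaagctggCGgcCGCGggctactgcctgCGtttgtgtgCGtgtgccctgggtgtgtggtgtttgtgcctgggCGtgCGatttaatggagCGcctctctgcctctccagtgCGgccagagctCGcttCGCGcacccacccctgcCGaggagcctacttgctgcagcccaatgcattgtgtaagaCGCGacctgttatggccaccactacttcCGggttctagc
PBX3: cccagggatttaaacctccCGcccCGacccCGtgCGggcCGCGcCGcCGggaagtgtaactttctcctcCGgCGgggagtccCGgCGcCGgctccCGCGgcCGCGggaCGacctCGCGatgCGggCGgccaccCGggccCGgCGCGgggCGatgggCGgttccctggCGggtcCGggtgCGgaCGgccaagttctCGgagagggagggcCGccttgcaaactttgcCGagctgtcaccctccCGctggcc
The MEIS1 run holds 16 CG and 59.6% G or C, and the PBX3 run 36 CG and 75.6%. Of 35116 promoters in the table, 41.0% held at least 16 CG in the same stretch and 4.85% at least 36. The peaks are in hg19 and these sequences in GRCh38, so which peak, if any, lies over them is not given here, and gene parts (exon, intron, UTR) were not assigned to any region. The RefSeq gene table lists the RNA genes MEIS1-AS3, MEIS1-AS2 and LINC01798 beside MEIS1 and PBX3-DT beside PBX3, so a peak in a window need not belong to the gene that names it.

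The 4 lists of 697 held between 57154 and 76495 peaks and the 4 of KOPN-8 between 63585 and 70430, so the lengths of the lists overlapped between lines. Read depth is unknown. Each peak carries a value of the authors that the labels do not name, read here as its fold over the local background. The fold is given as a percentile, the percentage of peaks in the same list with a fold no higher. Folds and percentiles are used to describe peaks within their list, and where a library split a region into several peaks, the percentile of the region is that of its strongest peak. The labelled cell type was not checked against other marker loci, and the edit at SETD2 was not checked.

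Peaks at MEIS1 were many in KOPN-8 and few in 697. The 697 controls held 4 and 8 peaks in the window and the 697 clone 4 and 3. The KOPN-8 controls held 22 and 18 and the KOPN-8 clone 23 and 24. Every KOPN-8 library thus held more than any 697 library, with no overlap in either arm. The mean was 21.8 ± 2.63 (SD, n = 4) in KOPN-8 and 4.75 ± 2.22 in 697, a ratio of 4.58 (exact permutation of 8 libraries, two-sided p = 0.0286, the smallest that 4 against 4 allows, and 0.152 after Benjamini-Hochberg adjustment over 16 tests of both windows). The difference therefore did not pass the threshold of 0.05 after adjustment, and no test of this design could have passed it unless many of the 16 tests had shared that smallest p. Per 10000 peaks of the list, the window held between 2.83 and 3.71 peaks in KOPN-8 and between 0.392 and 1.14 in 697. Chromosome 2 as a whole did not lean that way, since it took between 8.30% and 8.42% of the peaks in KOPN-8 lists and between 9.47% and 9.72% in 697 lists.

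Open sequence at MEIS1 differed more than the number of peaks did. Peaks covered 8021 and 8013 bp of the 350 kb window in the KOPN-8 controls and 9074 and 9439 bp in the KOPN-8 clone. They covered 1346 and 2062 bp in the 697 controls and 1111 and 1140 bp in the 697 clone. The mean was 8637 ± 731 bp (SD, n = 4) against 1415 ± 444 bp, a ratio of 6.10 (exact permutation, two-sided p = 0.0286, adjusted p = 0.152). Much of the excess lay in weak peaks. With only the strongest 50% of each list, the window held 5, 4, 5 and 4 peaks in KOPN-8 and 2, 3, 2 and 3 in 697, a mean difference of 2 in place of 17 peaks that still left the lines apart. With all lists shortened to the 57154 strongest peaks it held 11, 13, 19 and 17 against 4, 5, 4 and 3.

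**Figure D1:**
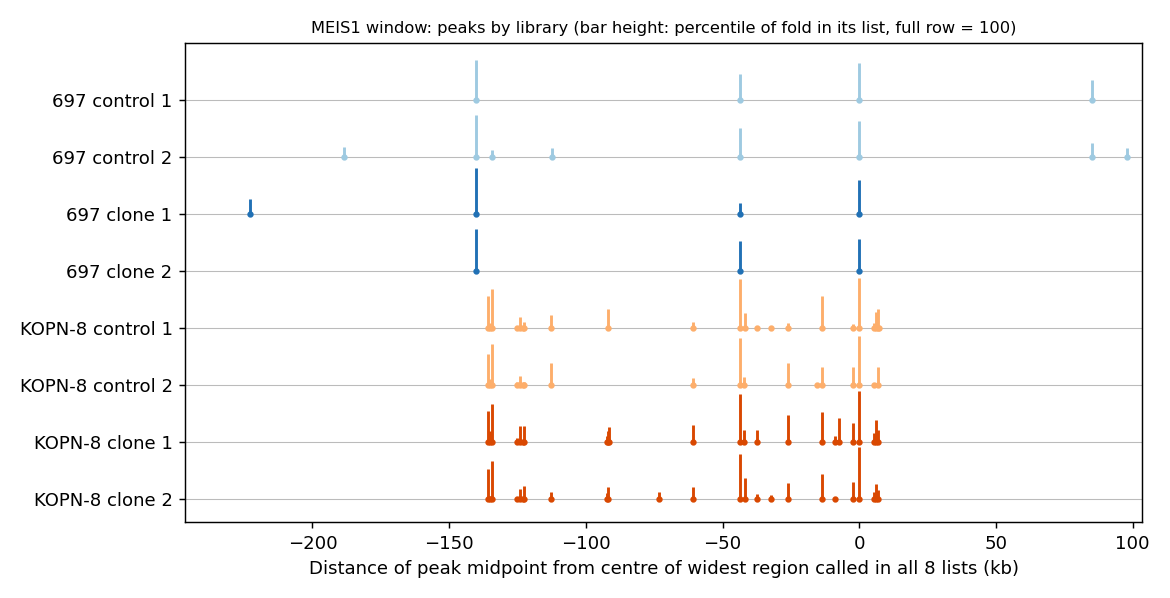
Peaks of the MEIS1 window in 8 libraries. The horizontal axis is the distance in kb of a peak's midpoint from the centre of the widest region called in all 8 lists, each row is a library, and the height of a bar is the percentile of the peak's fold in its list, with a full row standing for 100; bar thickness does not show peak width. The KOPN-8 rows hold 18 to 24 peaks and the 697 rows 3 to 8.

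The KOPN-8 peaks were not spread over the whole window. Regions called in all 4 KOPN-8 libraries numbered 16 and lay within 143.5 kb, from 66660522 to 66804068. Those called in all 4 libraries of 697 numbered 3 and lay in a similar stretch of 140.8 kb, from 66656002 to 66796781. Between 100 and 150 kb from the window's start the KOPN-8 lists held 8, 8, 7 and 8 peaks and the 697 lists 1, 3, 1 and 1. From 200 to 250 kb they held 8, 7, 9 and 9 against 2 in each 697 list. Outside the stretch from 100 to 300 kb no KOPN-8 library had a peak. The 697 lists held 5 there in all, 3 of them in the last 50 kb, in regions called in 1 or 2 libraries. The median distance between neighbouring regions called in all 4 libraries of a line was 1.72 kb in KOPN-8 and 69.7 kb in 697. The 697 value rests only on gaps of 43.1 and 96.2 kb.

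Of the 29 MEIS1 regions, 13 (44.8%) were called in all 4 KOPN-8 libraries and in no 697 library. Over all regions of the series the same pattern was found in 7.3%. The reverse pattern held for 1 MEIS1 region, against 5.85% of all regions. With the lists shortened to equal length the count was 6 of 23 MEIS1 regions, beside 8.36% of all regions, and in the strongest 50% of each list it was 2 of 6, beside 8.92%. The 13 regions were weak within their lists: the median of the smallest percentile among the 4 libraries was 9.71, against 35.7 over all 9707 regions of this kind. Their median width, 459 bp, was close to the 439 bp of all such regions.

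The strongest of these 13 regions was chr2:66660522-66660909, called as peaks of 386 and 349 bp in the KOPN-8 controls and 349 and 337 bp in the clone, at percentiles from 52.6 to 57.0. It was the 1 region of the 13 to lie above the middle of all 4 lists. Next came chr2:66782317-66783214, where the peaks measured 583 and 481 bp in the controls, and 888 and 880 bp for the clone, at percentiles from 32.4 to 56.7. The peaks were wider in the clone there, and the covered bases were fewer in the clone at the region named next. How many of all regions differ between arms in this way was not counted. The widest region of the window, chr2:66802423-66804068, was covered over 1309 and 1597 bp in the controls, and over 1154 and 1140 bp for the clone. It was a single peak of 1597 bp in control 2 and was split into 3 peaks in control 1 and 2 peaks in each clone library. The remaining 2 of the 5 regions named by rank were chr2:66672289-66672747, at percentiles from 15.9 to 29.3, and chr2:66754315-66754717, at percentiles from 14.8 to 37.3. The other 8 were between 280 and 745 bp wide, with percentiles between 0.119 and 47.6.

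A region of the window outside that pattern, chosen after its values were seen, was among the stronger ones in KOPN-8. At chr2:66662028-66662652 the KOPN-8 controls had peaks of 378 and 622 bp and the clone peaks of 399 and 607 bp, at percentiles from 67.2 to 73.0. In 697 it was called in control 2, as a peak of 235 bp at percentile 13.4, and in no other library. Another region was called in 697 control 2 and 3 KOPN-8 libraries. A further 7 regions were called in 1 to 3 KOPN-8 libraries and no 697 library, none above percentile 42.6. Over all regions, 28.3% were called in at least 1 KOPN-8 library and no 697 library, which includes the 7.3% called in all 4. The count of 7 is given as a description.

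Just 2 MEIS1 regions were open in all 8 libraries, and both were wider in KOPN-8. At chr2:66752704-66753121 the peaks were 286 and 311 bp wide in the 697 controls, 233 and 371 bp in the 697 clone, 402 and 403 bp in the KOPN-8 controls and 385 and 376 bp in the KOPN-8 clone. The lines did not overlap, although the widest 697 peak came within a few bases of the narrowest KOPN-8 peak. At chr2:66796240-66796781 they were 323 and 297 bp in the 697 controls, 294 and 303 bp in the 697 clone, 542 and 389 bp in the KOPN-8 controls and 385 and 386 bp in the KOPN-8 clone. Among all 27107 regions called in every library, widths were without overlap and larger in KOPN-8 in 11.6% and larger in 697 in 12.4%. The folds at the first region ranked from percentile 19.6 to 52.7 within 697 lists and from 79.1 to 87.0 within KOPN-8 lists. At the second they ranked from 57.1 to 65.6 and from 87.0 to 92.2. How many of all regions called in every library rank apart between lines in this way was not counted. The latter region held the strongest MEIS1 peak of every KOPN-8 list.

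In 697 the strongest MEIS1 peak lay elsewhere. The region chr2:66656002-66656501 was called in all 4 libraries of 697 and in no KOPN-8 library, with peaks of 487 and 355 bp in the controls, and 330 and 466 bp for the clone. Its folds were 8.01 and 8.33 for the controls and 10.2 and 8.83 for the clone, at percentiles from 70.3 to 82.1, the highest of the window in each 697 list. It ended 4020 bp before the first region called in all 4 KOPN-8 libraries. The other 4 regions found in 697 alone were called in 1 or 2 libraries each. In all, 5 of 29 MEIS1 regions were called in at least 1 library of 697 and in no KOPN-8 library, against 32.2% of all regions.

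In covered bases at MEIS1 the SETD2 clone libraries lay above their controls in KOPN-8 and below them in 697, by less than the lines differed. In number of peaks the arms were apart in KOPN-8, while in 697 control 1 and clone 1 both held 4. In KOPN-8 both clone libraries held more peaks and more covered bases than both controls, with means of 23.5 ± 0.707 against 20 ± 2.83 peaks (SD, n = 2) and 9256.5 ± 258 against 8017 ± 5.66 bp (exact permutation, two-sided p = 0.333 for each, the smallest that 2 against 2 allows). In 697 both clone libraries had fewer covered bases than both controls, with 1125.5 ± 20.5 against 1704 ± 506 bp (exact permutation, p = 0.333), and 3.5 ± 0.707 against 6 ± 2.83 peaks (p = 0.667). Over both lines the mean difference was 0.5 peaks (exact permutation within lines, p = 0.833) and 330.5 bp (p = 0.444). The difference in covered bases was 151.5 bp without 697 control 1, 509.5 bp without 697 control 2, 12.2 bp in the strongest 50% of each list, 557.5 bp among peaks wider than 250 bp and 722 bp with lists of equal length. The sign of the difference in peaks is not firm. It turned to -0.25 when a region split into several peaks was counted once, a count added after seeing the data, and to -0.5 without 697 control 1 or without KOPN-8 control 2.

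With all libraries, the share of MEIS1 regions specific to an arm lay near that over all regions. In KOPN-8 1 of 29 regions was gained, meaning called in both clone libraries and in neither control, against 2.45% of all regions, and 0 were lost, against 2.59%. The gained region, chr2:66787493-66787754, was called as peaks of 200 and 205 bp at percentiles 11.5 and 1.86. In 697 0 regions were gained, against 3.08% of all regions, and 1 was lost, chr2:66881379-66881689, against 1.32%. Its peaks measured 250 and 236 bp at percentiles 36.3 and 25.9 in the controls. Leaving out 1 library loosens the rule: without 697 control 1 the lost regions numbered 5 of 29, beside 8.34% of all regions under that rule, and without KOPN-8 control 1 the gained ones numbered 4 of 30, beside 5.16%. With lists of equal length 2 of 23 regions were gained in KOPN-8, beside 2.86%.

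**Figure D2:**
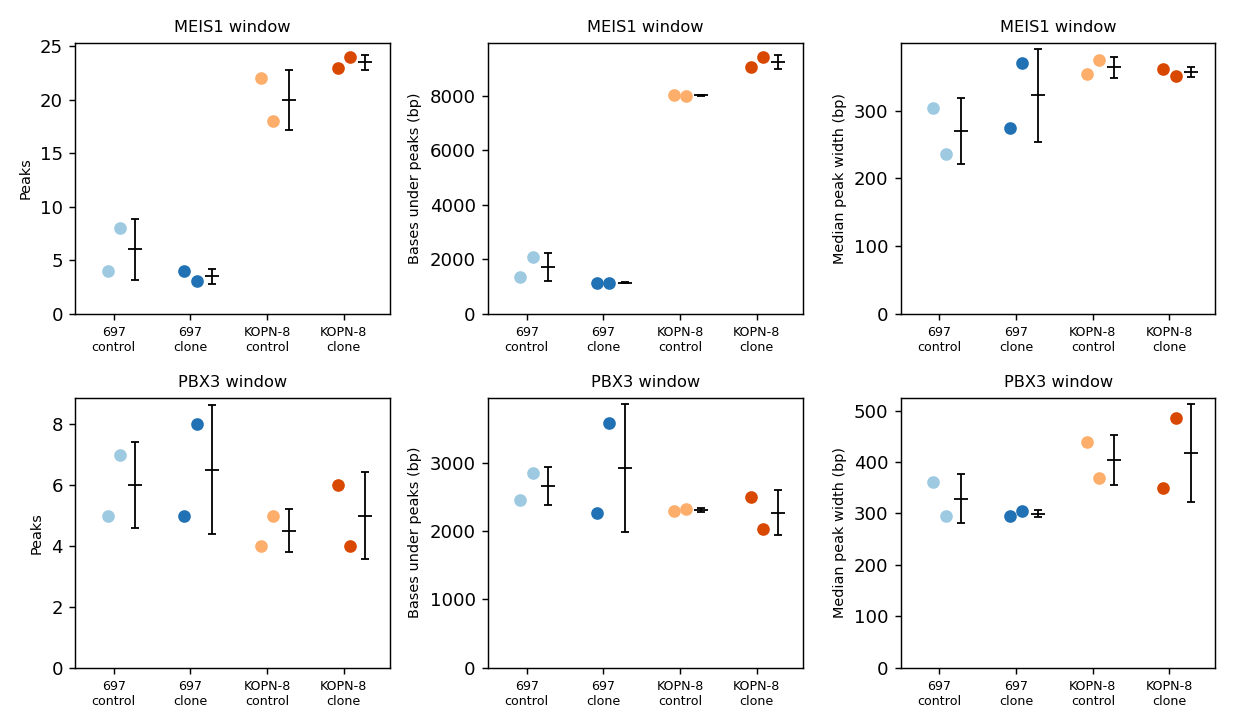
Number of peaks, bases under peaks and median peak width (vertical axes, from 0) in the MEIS1 window (upper row) and the PBX3 window (lower row). Coloured points are the 2 libraries of each group, with the mean and SD beside them as a black bar. At MEIS1 the KOPN-8 points for peaks and covered bases lie above all 697 points, and at PBX3 the lines overlap.

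The width of MEIS1 peaks did not separate the lines as their number did. The median width was 304.5 and 235.5 bp in the 697 controls and 274 and 371 bp in the 697 clone, each over 8 peaks at most. It was 353.5 and 375 bp in the KOPN-8 controls and 362 and 352 bp in the clone. The KOPN-8 values sat within a narrow band that 1 library of 697, clone 2 with 3 peaks, also reached. The mean was 361 ± 10.5 bp (SD, n = 4) against 296 ± 57.3 bp (exact permutation, two-sided p = 0.114, adjusted p = 0.305), and without 697 clone 2 the difference was 89.3 bp with the lines apart (p = 0.0286). Between arms it was 22.6 bp over both lines (exact permutation, p = 0.611), and -1.63 bp without 697 clone 2. A single MEIS1 peak, the one of 1597 bp in KOPN-8 control 2, reached 1000 bp.

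PBX3 gave another picture, with few peaks in both lines and the strongest of them shared. The 697 controls held 5 and 7 peaks and the 697 clone 5 and 8. The KOPN-8 controls held 4 and 5 and the KOPN-8 clone 6 and 4. The mean was 6.25 ± 1.5 (SD, n = 4) in 697 and 4.75 ± 0.957 in KOPN-8, and the ranges overlapped (exact permutation, two-sided p = 0.229, adjusted p = 0.457). Peaks covered 2459 and 2854 bp of the 330 kb window in the 697 controls, 2263 and 3586 bp in the 697 clone, 2291 and 2326 bp in the KOPN-8 controls and 2503 and 2037 bp in the KOPN-8 clone. The covered bases also overlapped between lines (exact permutation, p = 0.2, adjusted p = 0.457). The direction depended on the window's edge: widened by 50 kb on each side it held on average 1 peak more in KOPN-8 than in 697, in place of 1.5 fewer. With peaks wider than 250 bp alone the difference was 0.25 peaks.

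The 2 strongest PBX3 regions were open in every library and ranked high in every list. The region chr9:128469012-128469895 was covered over 400 and 407 bp in the 697 controls, 532 and 747 bp in the 697 clone, 450 and 642 bp in the KOPN-8 controls and 490 and 720 bp in the KOPN-8 clone. Its folds were between 11.7 and 16.9 and its percentiles between 89.0 and 98.3, the highest of the window in each of the 8 lists. The region chr9:128508216-128509792 was the widest of the window. It was covered over 1265 and 1030 bp in the 697 controls, 971 and 1237 bp in the 697 clone, 1414 and 1223 bp in the KOPN-8 controls and 1251 and 866 bp in the KOPN-8 clone. The strongest peak of each library lay between percentiles 71.1 and 87.9. Each 697 library and KOPN-8 clone 2 called it as 1 peak, and the other 3 KOPN-8 libraries as 2, of which the weaker ranked at percentile 0.850 in control 1, 70.8 in control 2 and 63.8 in clone 1. In both regions the widths overlapped between lines.

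**Figure D3:**
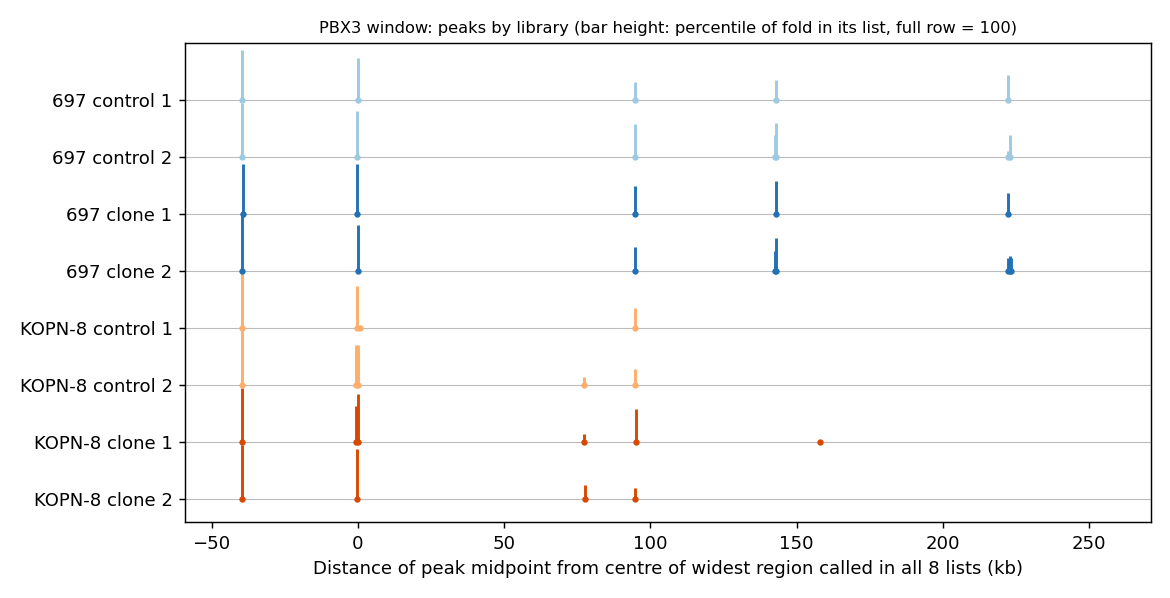
Peaks of the PBX3 window, drawn as for MEIS1: distance in kb from the centre of the widest region called in all 8 lists against library, with bar height as the percentile of the fold in its list. The 2 tall bars at the left stand in all 8 rows, and the peaks at the far right stand in 697 rows alone.

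Another PBX3 region, chr9:128603695-128604121, was open in all 8 libraries at lower rank. It was 222 and 295 bp wide in the 697 controls, 247 and 249 bp in the 697 clone, 427 and 252 bp in the KOPN-8 controls and 288 and 200 bp in the KOPN-8 clone, at percentiles from 20.9 to 58.0. Thus 3 of 10 PBX3 regions were called in all libraries, and 2 of 29 at MEIS1. Over all regions of the series 20.4% were.

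**Figure D4:**
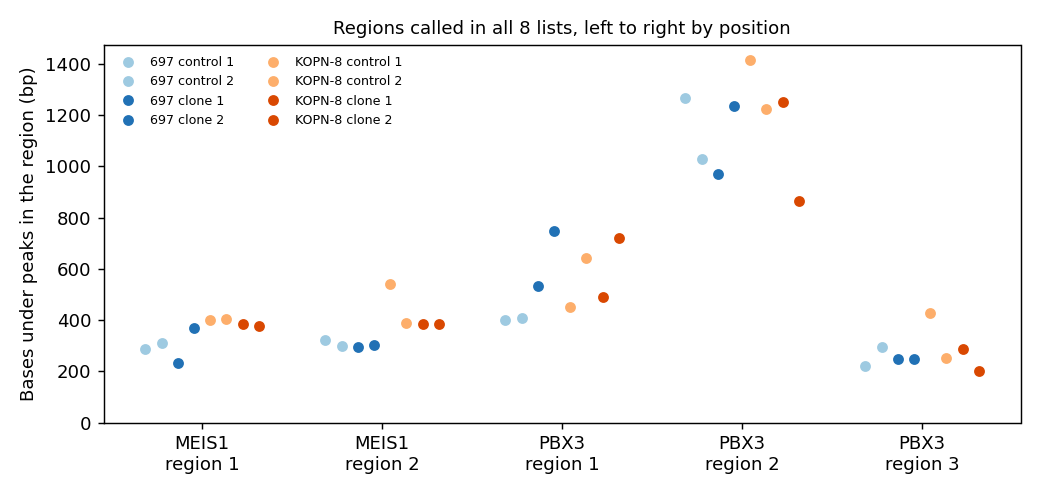
Bases under peaks (vertical axis, in bp, from 0) in the 2 MEIS1 and 3 PBX3 regions called in all 8 lists, ordered by position within each window, with 1 point per library. At both MEIS1 regions the KOPN-8 points lie above the 697 points, and at the 3 PBX3 regions the lines overlap.

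The lines differed at PBX3 in weaker regions farther along the window. Of 10 regions, 2 were called in all 4 libraries of 697 and in no KOPN-8 library, against 5.85% of all regions, and 0 showed the reverse, against 7.3%. At chr9:128651807-128652270 the peaks were 210 and 411 bp wide in the 697 controls and 295 and 369 bp in the clone, at percentiles from 36.2 to 60.4. At chr9:128731169-128731550 they were 362 and 200 bp in the controls, and 218 and 200 bp for the clone, at percentiles from 10.7 to 44.9. The count of 2 was 1 with lists of equal length, beside 7.05% of all regions, and 0 in the strongest 50% of each list, beside 8.27%. It was also 0 among peaks wider than 250 bp, where the share of all regions was not counted. Within 1 kb of these 2 regions lay the 3 others found in 697 alone, called in 1 or 2 libraries. In all, 5 of 10 PBX3 regions were called in at least 1 library of 697 and in no KOPN-8 library, against 32.2% of all regions. From 200 kb on from the window's start the 697 lists held 13 peaks in all and the KOPN-8 lists 1. In KOPN-8 alone, chr9:128586180-128586631 was called in control 2 and both clone libraries, at percentiles from 14.3 to 25.9, and 1 more region in 1 library. These made 2 of 10 PBX3 regions called in KOPN-8 and not in 697, against 28.3% of all regions.

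At PBX3 0 of 10 regions were gained and 0 lost in either clone. Over all regions 3.08% were gained and 1.32% lost in 697 and 2.45% and 2.59% in KOPN-8, so that 0 of 10 lies near the background. The mean difference between clone and control over both lines was 0.5 peaks (exact permutation within lines, two-sided p = 0.778), 114.8 bp covered (p = 0.833) and -7.5 bp of median width (p = 0.833). Each of these turned sign when 1 library was left out, the values running from -0.25 to 1.25 peaks, from -216 to 445.5 bp and from -41.5 to 26.5 bp. The lowest values for peaks and for covered bases came without 697 clone 2, and the highest for width without KOPN-8 clone 1. Median width was 362 and 295 bp in the 697 controls, 295 and 304.5 bp in the 697 clone, 438.5 and 369 bp in the KOPN-8 controls and 349.5 and 485.5 bp in the KOPN-8 clone. The KOPN-8 mean of 411 ± 62.9 bp (SD, n = 4) lay above the 697 mean of 314 ± 32.2 bp, with ranges that overlapped (exact permutation, p = 0.0571, adjusted p = 0.229), and the difference of 96.5 bp depended on the setting. Without KOPN-8 clone 1 it was 116.9 bp and with lists of equal length 109.5 bp, with the lines apart (exact permutation, p = 0.0286 for both), while it was 44.5 bp among peaks wider than 250 bp (p = 0.657), 39.4 bp in the strongest 50% of each list (p = 0.743) and 7.13 bp in the window widened by 50 kb on each side (p = 0.914). Peaks of at least 1000 bp numbered 3 in 697 and 1 in KOPN-8, all at the widest region (exact permutation, p = 0.486).

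The windows thus differed in how far the lines shared their open sequence, which is given as a description. The Jaccard index, the bases covered in both of a pair of lists divided by those covered in either, was 0.0705 on average over the 16 pairs of a 697 and a KOPN-8 library at MEIS1, from 0.0526 to 0.0944. At PBX3 it was 0.493, from 0.426 to 0.607. The index cannot exceed the smaller covered length of a pair divided by the larger. Covered bases averaged 1415 bp in 697 and 8637 bp in KOPN-8 at MEIS1, and 2790.5 and 2289 bp at PBX3. The low index at MEIS1 thus in part restates the difference in covered bases, and no index over the whole lists was computed. Between clone and control of the same line it was on average 0.630 in KOPN-8 and 0.501 in 697 at MEIS1, and 0.606 and 0.655 at PBX3. Between duplicates it was 0.670 in KOPN-8 and 0.527 in 697 at MEIS1, and 0.609 and 0.557 at PBX3. The ranges of control-clone pairs and of duplicates overlapped except in 697 at PBX3, where all 4 control-clone pairs, from 0.598 to 0.716, lay above both duplicate pairs, at 0.526 and 0.588.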

How the data were processed

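The labels' notes name alignment with Bowtie2 to hg19 and peak calling with MACS2, per the submitters' processing notes, with no versions or settings given in the sources used here. The authors deposited 1 list of peaks per library, so replicates had not been pooled. Each deposited list has 1 value per peak, read as a linear ratio, the fold over the local background, because its low values are evenly spaced and all lie between 1.69 and 27.2. A fold is the peak's own and served for rank and filter steps inside its list. Where folds are printed for a region, they are a description and were not tested between lists. No peak was under 200 bp. Starts are printed counted from 1.

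The windows and tests were chosen with earlier results of these data known. Peaks of 8 lists were merged where they shared at least 1 bp; any peak inside a region counted as a call by its library. Named regions follow a rule: all regions called in 8 libraries, specific to a line or to an arm, or the 5 with the highest smallest percentile where there were more than 8, and the widest region. Library labels were permuted exactly to compare numbers, covered bases and widths (threshold 0.05; Python 3.11.15, NumPy 2.4.6), with Benjamini-Hochberg adjustment over 16 tests. The calling code was tested on simulated lists. Alternatives were the strongest 50% of lists, lists of 57154 peaks, other window edges, peaks wider than 250 bp, calls covering 50% of a region, a replicate block and leaving out each library in turn.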

Additional observations from a re-analysis of the deposited data

Results flagged for a closer look

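Covered bases at MEIS1 moved in opposite directions in the clones. Both KOPN-8 clone libraries lay above both of their controls and both 697 clone libraries below theirs, and the difference between clone and control was 1818 bp larger in KOPN-8 than in 697 (exact permutation within lines, two-sided p = 0.0556, the smallest this design gives, and 0.222 after Benjamini-Hochberg adjustment over 8 such tests). The same was found for peaks at MEIS1 per 10000 peaks of the list, with a difference of 0.994 (exact permutation, p = 0.0556, adjusted p = 0.222). These tests of the difference between lines were added after seeing the data. Both results were picked because the clone libraries lay wholly above their controls in KOPN-8 and wholly below them in 697. That choice fixes the unadjusted p at its smallest value, so the p only restates the separation and adds no support to it.

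The median width of PBX3 peaks in 697 control 1, 362 bp over 5 peaks, stood apart from the other 697 libraries, at 295, 295 and 304.5 bp, by a Dixon test. Chance gives such a result in about 1 of 20 groups of 4. Both windows, both lines and several measures were screened in this way, so a result of this kind can arise by chance.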

How the results depend on the processing

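The larger number of peaks, share of peaks and covered bases at MEIS1 in KOPN-8 kept their direction and an exact p of 0.0286 under every alternative run except the replicate block. Exchanging labels in pairs of the same replicate number, arm or line kept, left the differences at 17 peaks, 2.55 peaks per 10000 and 7222 bp (exact permutation, p = 0.125, the smallest a block allows), and changed no other call. Replicate numbers did not pair the arms (correlation of replicate differences over all regions 0.0235 in 697 and 0.000597 in KOPN-8). Depth is unknown and limits how weak peaks can be read. The cause of the following changes was not tested.

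In the strongest 50% of each list, the difference between arms at MEIS1 was 0 peaks and -16.25 bp of median width, peaks of at least 1000 bp differed by 0 between lines, regions found in KOPN-8 alone numbered 2, and 0 were lost in 697 or gained in KOPN-8. At PBX3 0 regions were then found in 697 alone. With lists of equal length the arms differed by -12.1 bp of median width at MEIS1 and by 0 peaks, -24 bp covered and 2 bp of median width at PBX3. Median width at PBX3 then differed by 109.5 bp between lines (exact permutation, p = 0.0286), against p from 0.0286 to 0.143 with 1 library left out. MEIS1 regions found in KOPN-8 alone then numbered 6 and those gained there 2, and PBX3 regions found in 697 alone 1. In windows widened by 50 kb, KOPN-8 exceeded 697 at PBX3 by 1 peak, 0.162 peaks per 10000 and 207 bp, 2 MEIS1 regions were found in 697 alone and 2 PBX3 regions in KOPN-8 alone. With peaks wider than 250 bp the arms differed by -2.88 bp of median width at MEIS1 and by -0.25 peaks, -50.5 bp covered and 117.5 bp of median width at PBX3, the lines by 0.25 peaks and 0.042 peaks per 10000 at PBX3, 0 MEIS1 regions were lost in 697, 0 PBX3 regions were found in 697 alone and 1 was gained in KOPN-8. With calls covering 50% of a region, 1 PBX3 region was found in 697 alone, 1 gained in 697 and 1 in KOPN-8. Shares of all regions were not counted for calls covering 50%, for peaks wider than 250 bp or for arm changes in the strongest 50%. Those counts thus stand without a background. Widened windows leave the shares of all regions at 5.85% for 697 alone and 7.3% for KOPN-8 alone. With regions in place of peaks the arms differed by -0.25 at MEIS1.

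With 1 library left out, the arms differed at MEIS1 by -0.5 to 1.5 peaks and -1.63 to 46.9 bp of median width, and at PBX3 by -0.25 to 1.25 peaks, -216 to 445.5 bp covered and -41.5 to 26.5 bp of median width. Between lines median width differed by 44.1 to 89.3 bp at MEIS1 and 71.5 to 116.9 bp at PBX3, and MEIS1 peaks of at least 1000 bp by 0 to 0.333. At MEIS1 0 to 1 regions were gained and 1 to 5 lost in 697, and 1 to 4 gained and 0 to 1 lost in KOPN-8. At PBX3 0 to 1 regions were gained in either clone and 0 to 1 found in KOPN-8 alone. Leaving out 1 library loosens the rule for all regions as well. Without 697 control 1, 8.34% of all regions were lost in 697, and without KOPN-8 control 1, 5.16% were gained in KOPN-8. Shares with other libraries left out were not counted.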

Other observations

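Some regions just outside both windows were specific to a line, and those named here were picked for that pattern. The other regions in the stretches added by widening the windows were each called in only 1 library. Of all regions of the series, 5.85% were called in all 4 libraries of 697 and no KOPN-8 library. The reverse held for 7.3%. The named regions are therefore given as a description. The region chr2:66948662-66949713, beyond the MEIS1 window, was called in all 4 libraries of 697 and no KOPN-8 library, at percentiles from 84.0 to 92.7, higher than any 697 peak within the window. Before the PBX3 window, chr9:128408981-128409389 and chr9:128412514-128412866 were each called in all 4 KOPN-8 libraries and no 697 library, at percentiles from 24.4 to 55.4 and from 5.00 to 51.0.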
